A study of Homo sapiens with 8 samples.

Results

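Interleukin-6 (IL6) family genes were followed in BEAS-2B cells, an immortalised line of human bronchial epithelium, after house dust mite (HDM) extract with or without siRNA against LY96. The set was chosen by gene symbol and holds 9 of the 26485 genes listed per library: the ligands IL6, LIF and IL11, the receptor chains IL6R, OSMR, LIFR and IL6ST, the transcription factor STAT3 and the feedback inhibitor SOCS3. LY96 encodes MD-2, which binds lipopolysaccharide together with the receptor TLR4. There were 3 libraries of cells given LY96 siRNA and HDM extract, 1 of LY96 siRNA and PBS, 3 of control siRNA and HDM extract, and 1 of control siRNA and PBS. All cells were kept in BEGM medium, moved to BEBM medium 24 h before stimulation and harvested 24 h after it. The dose of HDM extract is not given in the labels. All libraries came from 1 cell line, and whether replicate libraries stem from separate cultures is not stated in the labels. The spread behind the p-values is thus that of libraries and may be technical.

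Cytokines of this family bind a receptor chain of their own and then share the signal-transducing chain gp130, encoded by IL6ST. Receptor-bound JAK kinases phosphorylate STAT3, which enters the nucleus and turns on its targets, SOCS3 among them. SOCS3 protein binds gp130 and the JAK kinases and shuts the signal down. In airway epithelium, IL6 and LIF are known as cytokines released upon inflammatory stimulation.

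Levels were taken to be FPKM (fragments per kilobase of transcript, scaled to sequenced fragments), although no label or header gives the unit. On that reading genes can be compared per length. Ratios between genes and the order of their levels rest on it. Tests were made with limma on log2(FPKM + 1), for genes averaging at least 1 FPKM over the libraries compared, with Benjamini-Hochberg adjustment over all genes tested and a threshold of 0.05. Differences on that scale understate the change of low genes. Of the 9 genes, 8 were tested, and IL11, with a mean of 0.704 FPKM, was too low to judge. FPKM totals were 329777 to 340328 per library, and read depth is unknown. LY96 itself was listed at 0 FPKM in all 8 libraries, so the knockdown could not be checked. All 10 epithelial markers averaged at least 1 FPKM, with summed levels of 2357 to 2536 in LY96 siRNA HDM libraries, 2676 in the LY96 siRNA PBS library, 2552 to 2669 in control siRNA HDM libraries and 2595 with control siRNA and PBS. None of 10 leukocyte markers reached 1 FPKM on average, and PTPRC, CD3E, FCER1A and MS4A1 were at 0 throughout. None of 6 endothelial markers reached that level either, with PECAM1 at 0, while 2 of 7 fibroblast markers did (COL1A1 and PDGFRB), with DCN and LUM at 0. In bulk RNA, fewer cells of a kind and less RNA per cell cannot be told apart.

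The promoters of IL6 and IL11 are shown because these ligands lay on opposite sides of their PBS level after HDM extract, although IL11 was too low to judge. Both are RefSeq windows upstream of the start site on GRCh38.p14, given 5′ to 3′ on the strand of the gene. The IL6 stretch is chr7:22726950-22727146 on the plus strand, with the 53 bases nearest the start left out as GENCODE annotates an exon there, and its capitals mark, in order, the core of a cAMP response element (CRE) read on the opposite strand, a C/EBP motif and an NF-kB motif. The IL11 stretch is chr19:55370464-55370713 on the minus strand, and its capitals mark an AP-1 motif.
IL6: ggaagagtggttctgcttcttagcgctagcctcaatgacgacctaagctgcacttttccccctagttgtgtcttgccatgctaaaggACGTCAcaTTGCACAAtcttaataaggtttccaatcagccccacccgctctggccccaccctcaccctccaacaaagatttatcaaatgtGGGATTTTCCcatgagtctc
IL11: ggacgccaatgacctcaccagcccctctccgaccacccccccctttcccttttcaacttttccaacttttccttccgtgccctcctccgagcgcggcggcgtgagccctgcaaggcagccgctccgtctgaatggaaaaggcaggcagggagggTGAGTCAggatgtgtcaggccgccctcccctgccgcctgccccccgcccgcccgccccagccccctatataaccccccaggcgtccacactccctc
The letters searched, on both strands of the 250 bases before the start, were GGG, any 2 bases, TT, any base and CC for NF-kB, TTGCNNAA for C/EBP, TGACGT for the CRE core, TGANTCA for AP-1 and TTCNNNGAA for STAT. Over 35116 promoter windows of the same length, 5.07% held the NF-kB letters, 9.05% the C/EBP letters, 7.10% the CRE letters, 6.57% the AP-1 letters and 6.57% the STAT letters. The IL6 window held the NF-kB match GGGATTTTCC at 73 to 64 bases before the start. OSMR and LIFR windows held C/EBP letters, and 2 STAT matches lay in LIFR windows. No searched motif was found in the windows of IL6R, IL6ST, STAT3 and SOCS3. GENCODE exons of the gene cover 150 of the 250 bases for IL6R, 126 for STAT3 and 30 for IL6ST. They cover 154 bases for OSMR and 168 in 1 of the 2 SOCS3 windows. These windows are thus only partly upstream of the annotated gene. The SOCS3 windows were chr17:78360926-78361175 and chr17:78359668-78359917. Neither covers the bases just upstream of the GENCODE gene start at 78360077 on the minus strand, which were thus not searched. A match is a description of letters and not of binding. LIF was not in the promoter table.

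With HDM extract over both siRNAs, the ligands IL6 and LIF, the receptor chain OSMR, STAT3 and SOCS3 rose, whereas gp130 and the IL6 and LIF receptor chains did not pass the test. Within control siRNA cells alone, LIF and SOCS3 did not pass. Their HDM differences were log2 0.30 and 0.27 there, against 0.65 and 0.66 within LY96 siRNA cells. Over both siRNAs, 5 of 8 tested genes rose and 0 fell, against a background of 8.36% of 12604 genes called in either direction, 4.86% higher and 3.5% lower. With LY96 siRNA under HDM, IL6, LIF, IL6ST and SOCS3 were higher than with control siRNA under HDM. This is 4 of 8 higher and 0 lower, against 15.6% of 12598 genes called in either direction, 6.68% higher and 8.92% lower. That background held 842 genes higher and 1124 lower, and with median-ratio scaling it held 1068 higher and 877 lower. The HDM comparisons and the siRNA comparison use the same HDM libraries, and each PBS group is 1 library whose spread is assumed to be that of the HDM libraries. IL6 is among the genes counted as rising with HDM. It was under 1 FPKM in both PBS libraries and passed the low-value filter through its HDM libraries, where it is high. Summed fibroblast markers moved with HDM, at 16.9 to 19.0 FPKM with LY96 siRNA and HDM, 25.7 in the LY96 siRNA PBS library, 16.0 to 17.1 with control siRNA and HDM, and 22.9 with control siRNA and PBS. PDGFRB fell with HDM by log2 0.60 (limma, adjusted p = 1.62e-04). COL1A1 was higher with LY96 siRNA under HDM, by log2 0.37 (limma, adjusted p = 0.0269). Of the 10 epithelial markers, 2 were called higher and 3 lower with HDM over both siRNAs, and as many with LY96 siRNA under HDM, though not all the same ones. With HDM, TP63 and KRT5 were higher and KRT7, KRT8 and KRT18 lower. With LY96 siRNA under HDM, LAMB3 and CDH1 were higher and KRT19, KRT18 and KRT8 lower. The part of either marker list in the results was not tested.

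**Figure D1:**
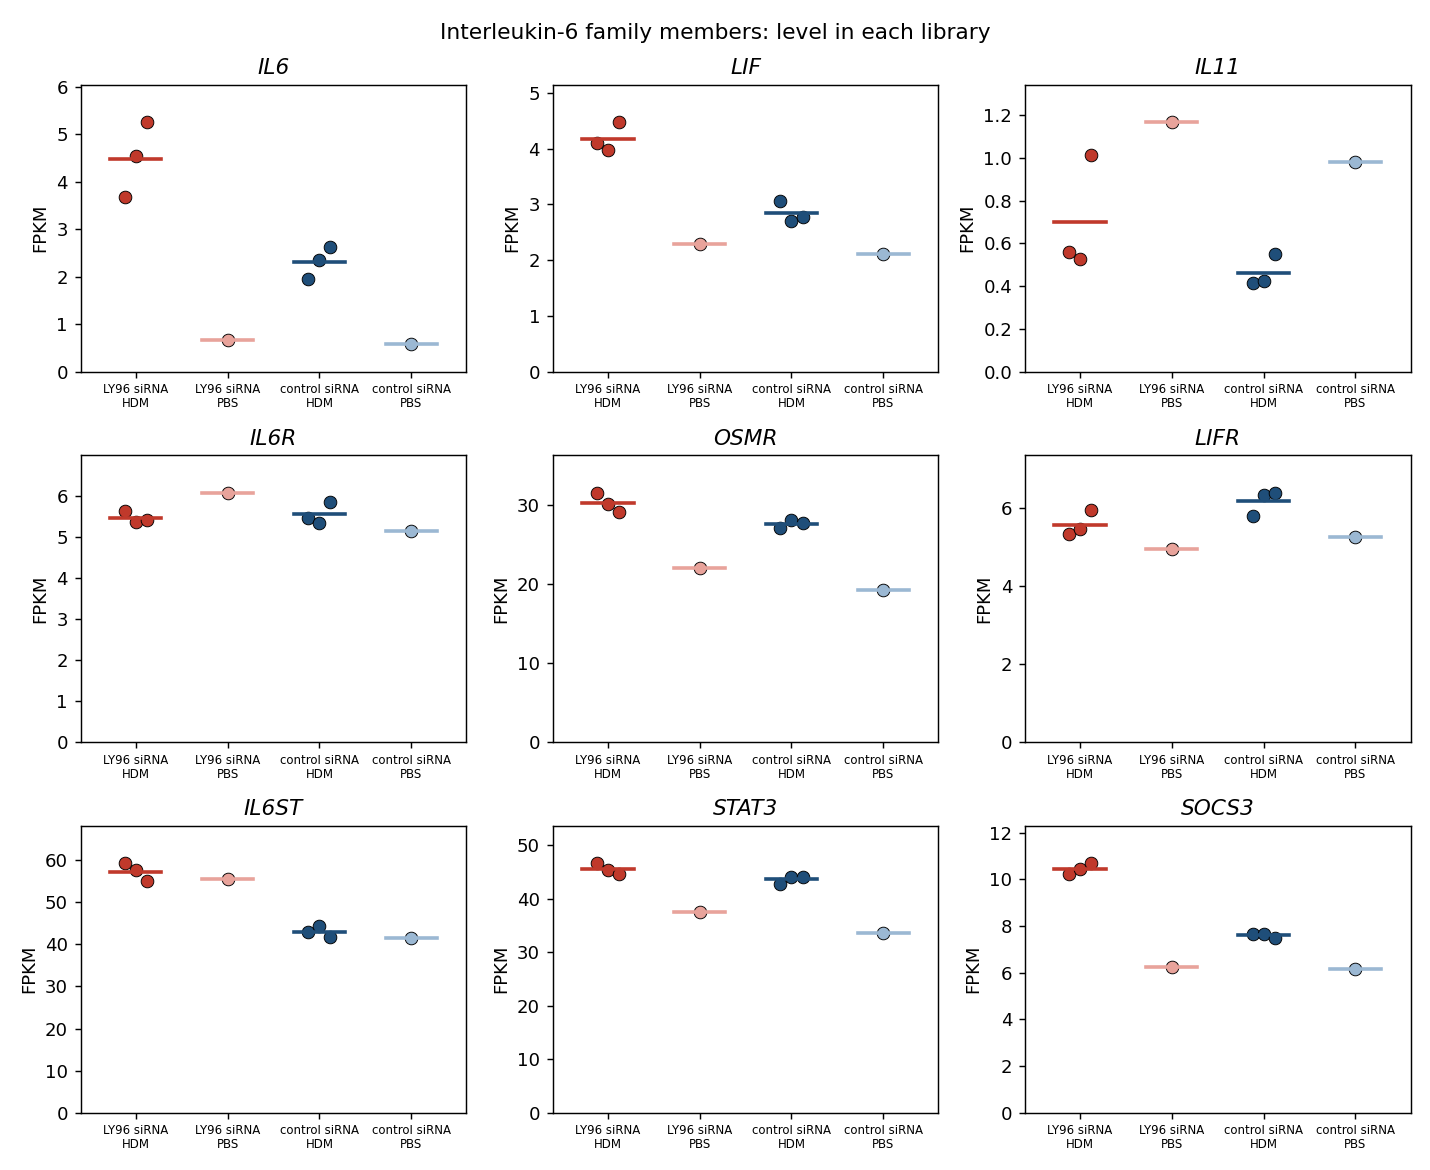
FPKM of the 9 genes in each of the 8 libraries, 1 panel per gene; points are libraries, lines are group means, and each panel has its own axis starting at 0. With LY96 siRNA against control siRNA under HDM, IL6, LIF, IL6ST and SOCS3 were called higher by limma, where 6.68% of all tested genes were. OSMR and STAT3 were not called.

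IL6, the cytokine that names the family and acts on epithelium, leukocytes and liver, lies at chr7:22725884-22732002 on the plus strand (GENCODE v29, GRCh38). Its level was 3.68, 4.54 and 5.25 FPKM with LY96 siRNA and HDM, 0.669 in the LY96 siRNA PBS library, 1.95, 2.36 and 2.62 with control siRNA and HDM, and 0.587 with control siRNA and PBS. Both PBS libraries were lowest, and every LY96 siRNA HDM library exceeded every control siRNA HDM library. IL6 rose by log2 1.38 ± 0.12 (SE) with HDM over both siRNAs (limma, adjusted p = 1.77e-04). The PBS levels were themselves under 1 FPKM, and IL6 passed the low-value filter through its HDM libraries, so ratios over PBS are imprecise. This limit also holds for the interaction given below, which sets the HDM responses of the siRNAs against each other. Within the LY96 siRNA cells the HDM difference was log2 1.71 ± 0.17 (limma, adjusted p = 5.50e-04), and within control siRNA cells 1.06 ± 0.17 (limma, adjusted p = 0.0145). The control siRNA call was lost without the filter on low values (limma, adjusted p = 0.0639). Under HDM, IL6 averaged 4.49 ± 0.789 FPKM with LY96 siRNA and 2.31 ± 0.335 with control siRNA (SD, n = 3 each). This difference was log2 0.72 ± 0.12 (limma, adjusted p = 0.00516). IL6 exons share 428 bases with AC073072.1 and 46 with STEAP1B on the opposite strand, and the sources used here do not state whether counting used strand. STEAP1B was at most 0.0513 FPKM.

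LIF, leukemia inhibitory factor, signals through LIFR and gp130 and lies at chr22:30240447-30246851 on the minus strand. Its level was 4.09, 3.97 and 4.47 FPKM with LY96 siRNA and HDM, 2.29 in the LY96 siRNA PBS library, 3.06, 2.69 and 2.78 with control siRNA and HDM, and 2.11 with control siRNA and PBS. The order of the groups was that of IL6, over a narrower range. LIF rose with HDM over both siRNAs by log2 0.48 ± 0.07 (limma, adjusted p = 0.00292). The rise passed within LY96 siRNA cells (log2 0.65 ± 0.10, limma, adjusted p = 0.00520), and the difference within control siRNA cells was 0.30 ± 0.10 (limma, adjusted p = 0.172). Under HDM, LIF was higher with LY96 siRNA, at 4.18 ± 0.261 FPKM against 2.85 ± 0.191 with control siRNA (SD, n = 3 each). The difference was log2 0.43 ± 0.07 (limma, adjusted p = 0.00428). LIF shares 92 exon bases with LIF-AS1 and 175 with AC004264.1 on the opposite strand.

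IL11, a ligand of IL11RA and gp130 studied in tissue fibrosis, lies at chr19:55364389-55370463 on the minus strand. It was listed at 0.559, 0.528 and 1.01 FPKM with LY96 siRNA and HDM, 1.17 in the LY96 siRNA PBS library, 0.416, 0.424 and 0.549 with control siRNA and HDM, and 0.979 with control siRNA and PBS. The PBS libraries were the highest of their siRNA, in contrast to IL6 and LIF, and the HDM groups overlapped. With the low-value filter removed, the HDM difference over both siRNAs was log2 -0.40 (limma, adjusted p = 0.151) and the siRNA difference under HDM 0.21 (limma, adjusted p = 0.364).

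IL6/LIF ratios of FPKM were 0.898, 1.14 and 1.17 with LY96 siRNA and HDM, 0.292 in the LY96 siRNA PBS library, 0.639, 0.877 and 0.941 with control siRNA and HDM, and 0.278 with control siRNA and PBS. LIF was thus above IL6 in 6 of 8 libraries, and the exceptions were LY96 siRNA HDM libraries.

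IL6R, the chain that binds IL6 before gp130 joins it, lies at chr1:154405193-154469450 on the plus strand. Its level was 5.63, 5.37 and 5.41 FPKM with LY96 siRNA and HDM, 6.08 in the LY96 siRNA PBS library, 5.46, 5.35 and 5.85 with control siRNA and HDM, and 5.14 with control siRNA and PBS. The HDM libraries lay below the PBS library with LY96 siRNA and above it with control siRNA. The difference of these responses was log2 -0.22 ± 0.11 (limma, adjusted p = 0.663). The siRNA difference under HDM was -0.02 ± 0.05, with a 95% interval of -0.14 to 0.10 (limma, adjusted p = 0.839).

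OSMR, which pairs with gp130 to bind oncostatin M and also forms part of the IL31 receptor, lies at chr5:38845858-38945596 on the plus strand. Its level was 31.5, 30.1 and 29.1 FPKM with LY96 siRNA and HDM, 21.99 in the LY96 siRNA PBS library, 27.1, 28.1 and 27.7 with control siRNA and HDM, and 19.2 with control siRNA and PBS. HDM libraries stood clear of the PBS library in both siRNA arms. OSMR rose by log2 0.47 ± 0.04 with HDM over both siRNAs (limma, adjusted p = 1.32e-04). It also passed within LY96 siRNA cells at 0.44 ± 0.06 (limma, adjusted p = 0.00224) and within control siRNA cells at 0.50 ± 0.06 (limma, adjusted p = 0.00191). The HDM libraries of the siRNAs did not overlap, yet their difference of log2 0.12 ± 0.04 did not pass (limma, adjusted p = 0.0604), and it passed with median-ratio scaling, with the fit of 8 libraries without an interaction, and with genes of at least 5 FPKM. OSMR shares 229 exon bases with RICTOR on the opposite strand, which was at 5.47 to 6.37 FPKM.

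LIFR, the chain that binds LIF, lies at chr5:38474963-38608354 on the minus strand. Its level was 5.33, 5.45 and 5.94 FPKM with LY96 siRNA and HDM, 4.94 in the LY96 siRNA PBS library, 5.80, 6.32 and 6.39 with control siRNA and HDM, and 5.25 with control siRNA and PBS. The HDM groups overlapped, and each HDM library exceeded the PBS library of its siRNA. The HDM difference over both siRNAs was log2 0.17 ± 0.06, with a 95% interval of 0.04 to 0.31 (limma, adjusted p = 0.127), and the siRNA difference under HDM was -0.13 ± 0.06 (limma, adjusted p = 0.185). LIFR shares 629 exon bases with LIFR-AS1 on the opposite strand, listed at 0.154 to 0.327 FPKM. OSMR and LIFR bind related ligands, and the OSMR/LIFR ratio of FPKM was 5.91, 5.51 and 4.90 with LY96 siRNA and HDM, 4.45 in the LY96 siRNA PBS library, 4.67, 4.45 and 4.33 with control siRNA and HDM, and 3.67 with control siRNA and PBS.

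IL6ST, which encodes gp130, lies at chr5:55935095-55994993 on the minus strand. Its level was 59.3, 57.6 and 55.1 FPKM with LY96 siRNA and HDM, 55.4 in the LY96 siRNA PBS library, 42.9, 44.4 and 41.8 with control siRNA and HDM, and 41.4 with control siRNA and PBS. LY96 siRNA libraries were all above control siRNA libraries, with PBS and with HDM. Under HDM, IL6ST averaged 57.3 ± 2.12 FPKM with LY96 siRNA and 43.0 ± 1.28 with control siRNA (SD, n = 3 each). The difference was log2 0.40 ± 0.04 (limma, adjusted p = 4.30e-04), rank 72 of all tested genes by p. The ratio of means, LY96 over control siRNA, was 1.33 under HDM and 1.34 under PBS, where there is 1 library each and no test. With HDM over both siRNAs the difference was 0.05 ± 0.04, with a 95% interval of -0.04 to 0.14 (limma, adjusted p = 0.519). IL6ST shares 797 exon bases with AC008914.1 on the opposite strand. IL6ST was 10.5, 10.7 and 10.2 times IL6R in FPKM with LY96 siRNA and HDM, 9.12 times in the LY96 siRNA PBS library, 7.85, 8.30 and 7.15 times with control siRNA and HDM, and 8.07 times with control siRNA and PBS.

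STAT3, the transcription factor that gp130 activates, lies at chr17:42313324-42388568 on the minus strand. Its level was 46.6, 45.3 and 44.5 FPKM with LY96 siRNA and HDM, 37.5 in the LY96 siRNA PBS library, 42.7, 44.0 and 44.0 with control siRNA and HDM, and 33.6 with control siRNA and PBS. HDM libraries exceeded the PBS library in both arms. STAT3 rose by log2 0.32 ± 0.03 with HDM over both siRNAs (limma, adjusted p = 4.75e-04), with ratios of means of 1.21 with LY96 siRNA and 1.30 with control siRNA. It passed within LY96 siRNA cells (limma, adjusted p = 0.00974) and within control siRNA cells (limma, adjusted p = 0.00406). The siRNA difference under HDM was 0.06 ± 0.03, with a 95% interval of -0.01 to 0.13 (limma, adjusted p = 0.25). RNA levels do not measure STAT3 phosphorylation.

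SOCS3, the feedback inhibitor, lies at chr17:78356778-78360077 on the minus strand. Its level was 10.2, 10.4 and 10.7 FPKM with LY96 siRNA and HDM, 6.22 in the LY96 siRNA PBS library, 7.65, 7.67 and 7.47 with control siRNA and HDM, and 6.15 with control siRNA and PBS. The PBS libraries lay close to each other, and the HDM groups stood apart from each other. Under HDM, SOCS3 averaged 10.4 ± 0.224 FPKM with LY96 siRNA and 7.60 ± 0.111 with control siRNA (SD, n = 3 each), a difference of log2 0.41 ± 0.04 (limma, adjusted p = 6.42e-04). SOCS3 rose with HDM over both siRNAs by log2 0.46 ± 0.04 (limma, adjusted p = 2.60e-04). It rose within LY96 siRNA cells by 0.66 ± 0.06 (limma, adjusted p = 3.20e-04), and the difference within control siRNA cells was 0.27 ± 0.06 (limma, adjusted p = 0.0639). Set against STAT3, the SOCS3/STAT3 ratio of FPKM was 0.220, 0.230 and 0.240 with LY96 siRNA and HDM, 0.166 in the LY96 siRNA PBS library, 0.179, 0.174 and 0.170 with control siRNA and HDM, and 0.183 with control siRNA and PBS. The ratio was above the PBS library with LY96 siRNA and below it with control siRNA.

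**Figure D2:**
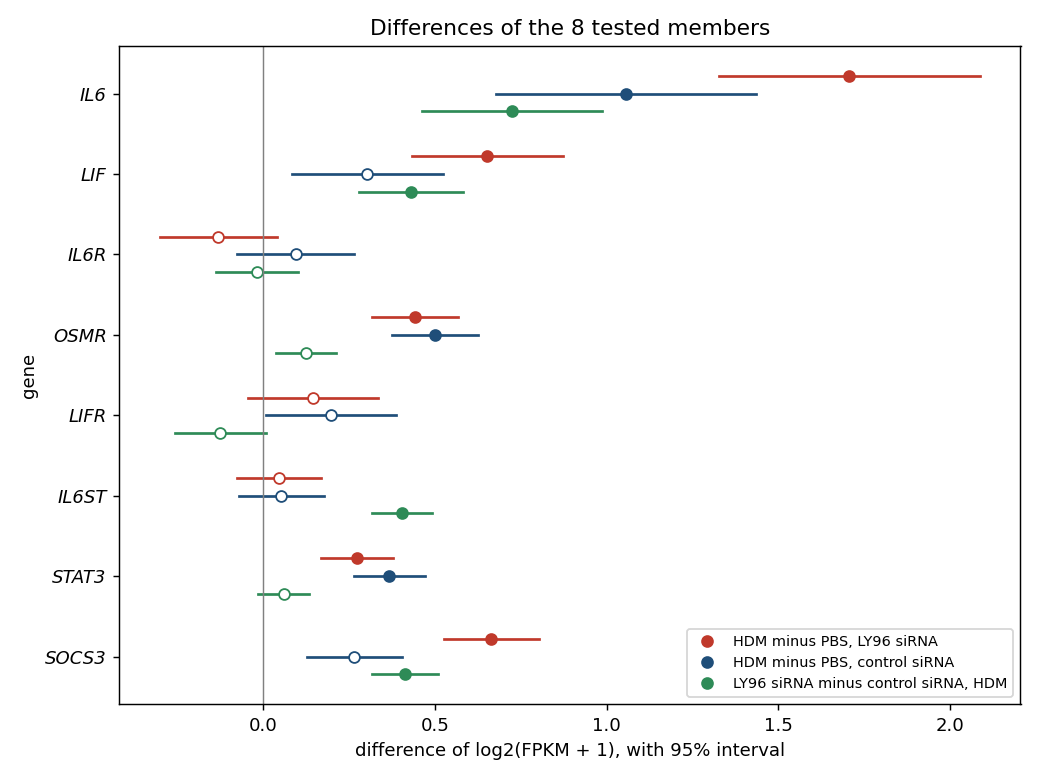
Difference in log2(FPKM + 1) of the 8 tested genes with 95% interval for the siRNA comparison under HDM and for HDM against PBS within each siRNA; filled points had an adjusted p below 0.05 by limma. IL6ST has an interval above 0 in the siRNA comparison, at 0.40, and intervals across 0 in the HDM comparisons.

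The calls differed between arms, with 5 of 8 genes called higher after HDM with LY96 siRNA and 3 of 8 with control siRNA. Over all genes, 4.9% were called with LY96 siRNA (2.91% higher and 1.98% lower) and 2.28% with control siRNA (1.55% higher and 0.738% lower). The difference itself was tested as an interaction, the HDM effect in LY96 siRNA cells less the HDM effect in control siRNA cells. None of the 8 genes passed (limma), where 7 of 12604 genes (0.0555%) did. At unadjusted p under 0.05 there were 3 of 8 genes, against 7.58% of all genes. These were SOCS3, at log2 0.40 ± 0.09 (limma, unadjusted p = 0.00131, adjusted p = 0.226), IL6, at 0.65 ± 0.24 (limma, adjusted p = 0.569), and LIF, at 0.35 ± 0.14 (limma, adjusted p = 0.611). The IL6 value rests on 1 PBS library per siRNA, each under 1 FPKM, and is imprecise. IL6 is also in the HDM counts of both arms, although it passed the low-value filter through its HDM libraries. For IL6ST the interaction was -0.01 ± 0.08, with a 95% interval of -0.18 to 0.17 (limma, adjusted p = 0.988).

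By mean level over the libraries, the order was IL6ST (49.7 FPKM), STAT3 (42.3), OSMR (26.9), SOCS3 (8.31), LIFR (5.68), IL6R (5.54), LIF (3.18), IL6 (2.71) and IL11 (0.704). Among genes averaging at least 1 FPKM, 90.4% lay below IL6ST and 15.9% below IL6. Neighbours were not ordered alike in all libraries: IL6ST was above STAT3 in 7 of 8, LIFR above IL6R in 6 of 8, and IL6 above IL11 in 6 of 8.

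Of 8 other ligands of gp130 or related receptors, 2 averaged at least 1 FPKM and were tested, and 0 passed in either comparison (limma). CLCF1 averaged 3.07 ± 0.510 FPKM with LY96 siRNA and HDM and 2.91 ± 0.0145 with control siRNA and HDM (SD, n = 3 each). CTF1 averaged 2.04 ± 0.310 FPKM with LY96 siRNA and HDM and 2.27 ± 0.271 with control siRNA and HDM (SD, n = 3 each). At an unadjusted p under 0.05 there was 1 of these with HDM, against 21.6% of all genes, and 0 with siRNA, against 31.2% of all genes. OSM, IL27 and IL31 were listed at 0 in all libraries. Of the other receptor chains and the sheddases that release IL6R, 5 of 6 were tested. With LY96 siRNA under HDM, 2 rose and 1 fell, where 6.68% of all genes were called higher and 8.92% lower. The list median was log2 0.18 against -0.02 over all genes. IL11RA, the IL11 receptor, averaged 7.28 ± 0.522 FPKM with LY96 siRNA and 5.62 ± 0.512 with control siRNA under HDM (SD, n = 3 each; log2 0.32 ± 0.07, limma, adjusted p = 0.0181). ADAM10, a sheddase, was lower, at 30.7 ± 0.613 against 36.2 ± 0.683 FPKM (log2 -0.23 ± 0.03, limma, adjusted p = 0.00317). ADAM17, the other sheddase, was higher by 0.18 ± 0.05 (limma, adjusted p = 0.0385). With PBS, in 1 library per siRNA, ADAM10 was at 30.9 FPKM with LY96 siRNA and 35.1 with control siRNA. IL11RA was at 6.62 and 6.82 in the same libraries. IL11RA passed in 10 of 15 alternatives and ADAM17 in 8 of 15, and with 1 HDM library removed 0 to 2 receptor genes were called higher. With HDM over both siRNAs, 1 rose, IL27RA, a chain of the IL27 receptor, by log2 0.62 ± 0.08 (limma, adjusted p = 0.00158). Among all genes 4.86% were called higher in that comparison.

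Of 15 kinases, STATs, adaptors and phosphatases, all 15 were tested. With LY96 siRNA under HDM, STAT5B was higher by 0.26 ± 0.05 (limma, adjusted p = 0.0102). With PBS, in 1 library per siRNA and without a test, STAT5B was at 10.2 FPKM with LY96 siRNA and 8.21 with control siRNA. With HDM over both siRNAs, the adaptor SHC1 rose by 0.22 ± 0.03 (limma, adjusted p = 0.00361) and the phosphatase PTPN2 by 0.30 ± 0.06 (limma, adjusted p = 0.0126), the second losing the call without the filter on low values (limma, adjusted p = 0.0561). Over all genes, 6.68% were called higher with LY96 siRNA under HDM and 4.86% with HDM over both siRNAs. The list medians were 0.02 with siRNA and 0.06 with HDM, against -0.02 and 0.01 over all genes. Of 7 other SOCS family genes, 5 were tested and 0 passed in either comparison (limma), with 2 at an unadjusted p under 0.05 in each, where 31.2% of all genes were with siRNA and 21.6% with HDM.

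Of 25 genes known as STAT3 targets, 17 were tested. With HDM over both siRNAs, 10 rose and 2 fell, where 4.86% of all genes were called higher and 3.5% lower. The list median was log2 0.40 against 0.01 over all genes. Among the risers were CEBPD, a transcription factor of the acute phase (log2 1.11 ± 0.04, limma, adjusted p = 4.89e-07), BCL3, a regulator of NF-kB (0.80 ± 0.05, limma, adjusted p = 1.89e-05), JUNB, an AP-1 subunit (0.56, limma, adjusted p = 1.32e-04) and CEBPB (0.56, limma, adjusted p = 1.86e-04). The acute phase genes SAA1 (2.49) and SAA2 (2.59) also rose, and as near-identical copies their separate values are uncertain. These genes are also known as targets of NF-kB or other factors. CCND1, a cyclin, and BCL2L1, an inhibitor of cell death, fell by log2 0.31 (limma, adjusted p = 0.00209) and 0.20 (limma, adjusted p = 0.00397), and are named after their values were seen as the 2 that fell. FGA, FGG and HAMP, made by liver, were listed at 0 throughout.

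With LY96 siRNA under HDM, 7 STAT3 targets rose and 2 fell, where 6.68% of all genes were called higher and 8.92% lower. The list median was 0.19 against -0.02 over all genes. CEBPB rose by 0.59 ± 0.05 (limma, adjusted p = 2.54e-04), JUNB by 0.56 ± 0.05 (limma, adjusted p = 2.47e-04), VEGFA, a vascular growth factor, by 0.49 (limma, adjusted p = 0.00330) and CEBPD by 0.25 (limma, adjusted p = 0.00367). VEGFA and CEBPD lost the call in the fit of 8 libraries without an interaction (limma, adjusted p = 0.0717 and 0.261). CCND1 fell by log2 0.88, to 10.3 ± 0.471 FPKM with LY96 siRNA, against 19.8 ± 0.181 with control siRNA (SD, n = 3 each; limma, adjusted p = 2.04e-05), and BCL2L1 fell by log2 0.23 (limma, adjusted p = 0.00184). In the PBS libraries, 1 per siRNA and without a test, CCND1 was at 14.2 FPKM with LY96 siRNA and 22.8 with control siRNA. CEBPD, higher with LY96 siRNA under HDM, was at 24.3 with LY96 siRNA and 28.2 with control siRNA there. In the same order, JUNB was at 29.1 and 22.5 FPKM, BCL2L1 at 54.1 and 60.8, CEBPB at 36.7 and 35.8, and VEGFA at 12.2 and 13.0. CCND1, JUNB and BCL2L1 thus differed with PBS in the direction seen under HDM. CEBPB differed little, and CEBPD and VEGFA lay the other way. Leaving out single HDM libraries gave 5 to 8 STAT3 targets higher and 2 lower. The share of FPKM from ribosomal RNA genes also moved with siRNA under HDM, at 1.03%, 1.03% and 1.31% with LY96 siRNA and 0.824%, 0.475% and 0.565% with control siRNA, and its part in these differences was not tested.

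**Figure D3:**
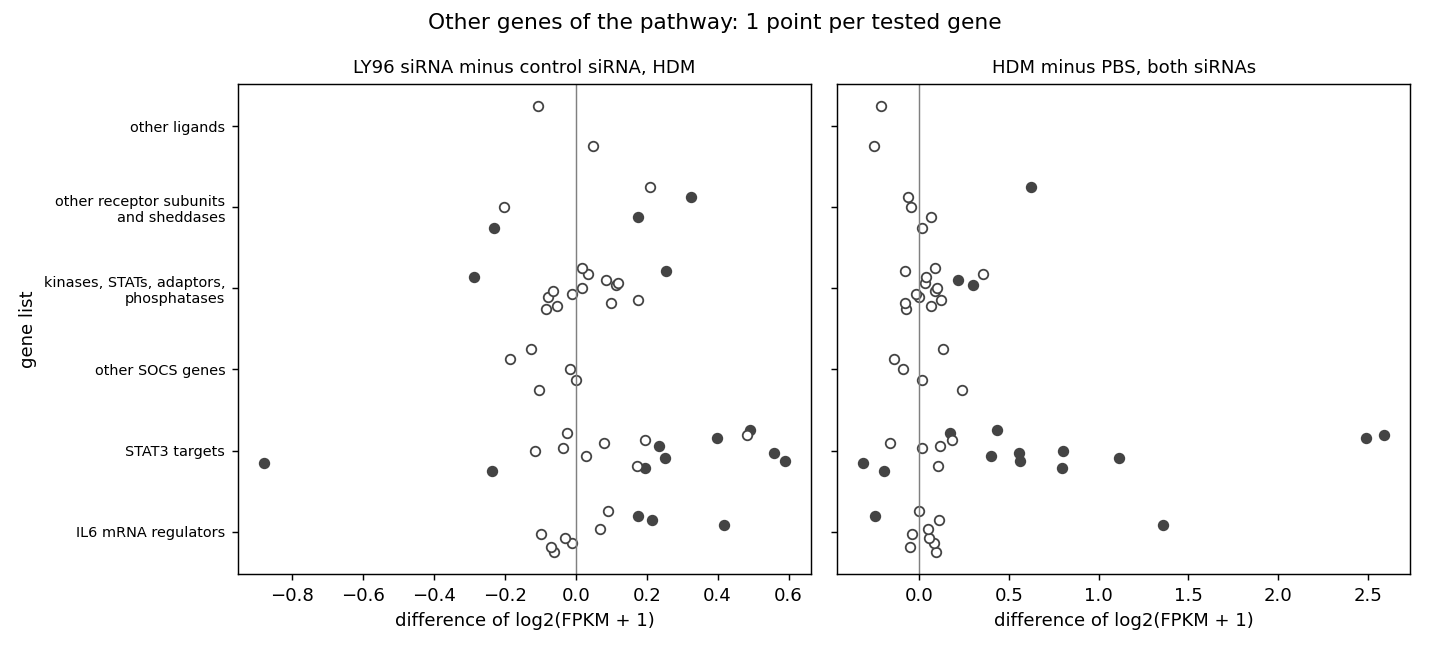
Difference in log2(FPKM + 1) for every tested gene of the 6 pathway lists, for LY96 siRNA minus control siRNA under HDM and for HDM minus PBS over both siRNAs; filled points had an adjusted p below 0.05 by limma. Of the 17 tested STAT3 targets, 10 were filled above 0 with HDM and 7 with LY96 siRNA. Over all genes, 4.86% were called higher with HDM and 6.68% with LY96 siRNA.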

How the data were processed

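RNA of 8 BEAS-2B libraries was deposited as 1 table per library with 1 value per gene. No label or header gives a unit; the deposited numbers were taken to be FPKM, because they are not whole and library totals differ. Per the submitters' processing notes, HISAT2 2.2.0 and hg38 were used; which quantifier and annotation followed is not given in the sources used here. Whole reads could not be recovered, so depth is unknown, and an exact 0 may be a failed estimate. No pair of libraries was identical.

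Groups came from the titles. Tests used limma 3.58.1 in R 4.3.3 with mean-variance trend and robust moderation, on log2(FPKM + 1) of genes averaging at least 1 FPKM; two-sided p-values were adjusted by Benjamini-Hochberg over all tested genes. The siRNA comparison used the 6 HDM libraries and the others 1 model of 4 group means over 8 libraries; each had 4 residual degrees of freedom. The code was tested on simulated data. Alternatives were no filter or 5 FPKM, other pseudocounts and scalings, no trend or robust moderation, an additive model, a replicate block and leaving out each HDM library. All 9 family genes are named, with list genes that passed (up to 6 per list and comparison, by adjusted p) and those listed at 0, except 1 result not reported here; for likeness, the 3 genes of highest Pearson r. Family genes and lists were chosen with earlier results of these data known. Gene coordinates were taken from GENCODE v29 (GRCh38).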

Additional observations from a re-analysis of the deposited data

How the results depend on the processing

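Of 550 values for single family genes under the alternatives, 544 kept their direction and side of the threshold, 1 lost and 5 gained the call, and 0 reversed. For pathway genes, 449 were kept, 42 lost the call and 0 reversed. The numbers of family genes called were 4, 5, 3, 5 and 0 with each of the 6 HDM libraries left out in turn, for siRNA under HDM, HDM over both siRNAs, HDM with control siRNA, HDM with LY96 siRNA and the interaction. With genes of at least 5 FPKM only 3 were called for HDM over both siRNAs and 3 for HDM with LY96 siRNA, since IL6 and LIF were not tested. The additive model of 8 libraries, without an interaction, fits 1 HDM effect for both siRNAs and estimates neither arm by itself. It called 5 family genes for that effect, LIF and SOCS3 among them (limma, adjusted p = 0.00743 and 0.00413). LIF and SOCS3 count as gained calls only because that effect was set against HDM with control siRNA. The 939 genes given below for each arm are likewise those of both siRNAs together. OSMR gained the siRNA call at adjusted p = 0.0374 with median-ratio scaling, 0.0189 additively and 0.0478 above 5 FPKM (limma). Genes called over the whole table were 1966 for siRNA (1119 to 1369 with 1 HDM library left out, lowest without control siRNA HDM replicate 2, and 1243 without replicate 3), 1054 for HDM over both siRNAs (774 to 936), 288 for HDM with control siRNA (187 to 329, lowest without control siRNA HDM replicate 2, 180 without trend or robust moderation, 939 additively) and 617 for HDM with LY96 siRNA (493 to 593, 939 additively). For the interaction, 7 genes became 20 without a filter, 15 above 5 FPKM, 14 with quantile normalization, 0 without trend or robust moderation and 0 to 33 with 1 HDM library left out (0 without control siRNA HDM replicate 1, 3 without replicate 3, 2, 33 and 4 without LY96 siRNA HDM replicates 1, 2 and 3). The cause was not tested. Whether library numbers pair the samples is not known. Same-numbered HDM libraries correlated at 0.0485, -0.0165 and -0.0162 in their deviations from group means, and others at -0.0277 to 0.0392. Pairs with little shared shift would look the same, so this cannot decide it. With a replicate block, 1635 genes and the same number of family genes, 4, were called for siRNA. No paired analysis was possible because PBS libraries carry no number, for HDM comparisons and the interaction. The PBS libraries, 1 per siRNA, were not left out. Depth is unknown, so IL11 cannot be given a counting limit.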

Other observations

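Proteins known to bind or cut IL6 mRNA were a further list of 10 genes, all tested. ZC3H12A, which encodes the ribonuclease Regnase-1 that cuts IL6 mRNA, averaged 18.9 ± 1.53 FPKM with LY96 siRNA and HDM (SD, n = 3), 6.64 with LY96 siRNA and PBS, 13.9 ± 0.208 with control siRNA and HDM (SD, n = 3) and 4.89 with control siRNA and PBS. It rose by log2 1.36 ± 0.06 with HDM over both siRNAs (limma, adjusted p = 1.57e-06) and was higher by 0.42 ± 0.05 with LY96 siRNA under HDM (limma, adjusted p = 0.00206). IL6 RNA was thus highest in the libraries in which ZC3H12A RNA was highest. ZFP36L1, which binds AU-rich elements, fell by log2 0.25 with HDM over both siRNAs (limma, adjusted p = 0.0105). With LY96 siRNA under HDM, 3 of the 10 rose and 0 fell, where 6.68% of all genes were called higher and 8.92% lower. Besides ZC3H12A these were ZFP36, at log2 0.21 (limma, adjusted p = 0.0208), and ZFP36L1, at 0.17 (limma, adjusted p = 0.0340). Leaving out single HDM libraries left 1 or 2 genes called: 1 without control siRNA HDM replicate 1 or without LY96 siRNA HDM replicate 1, and 2 without any other. ZFP36L1 passed in 8 of 15 alternatives, and did not with the replicate block (limma, adjusted p = 0.0662), without the low-value filter (0.0690) or without trend or robust moderation (0.0634). The list medians were 0.05 with HDM and 0.03 with siRNA, against 0.01 and -0.02 over all genes.

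Genes whose log2(FPKM + 1) followed the ligands and SOCS3 most closely were sought among 12603 others, over the 8 libraries in 4 groups, so that the coefficients mostly describe group differences. For IL6 they were VNN2 (Pearson r 0.993), CXCL6 (0.993) and VLDLR (0.991). For LIF they were SOCS3 (0.986), TRIB1 (0.986) and PTX3 (0.981), and for SOCS3 they were NAMPT (0.989), CCL20 (0.988) and LIF (0.986). LIF and SOCS3 were each among the nearest genes of the other. VNN2, CXCL6, PTX3 and CCL20 were at 0 to 0.151 FPKM in the PBS libraries. Like IL6, they passed the low-value filter through their HDM libraries. Their likeness thus follows in part from the filter and is no separate support for the differences given above.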
